A study of Homo sapiens with 30 samples.

Results

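The genes that set the passage of a cell into S phase were followed in the human lymphoblastoid lines GM15036 and GM15510. The set holds CCND2, CCND3, CCNE1, CCNE2, CDK2, CDK4, CDKN1B, CDKN2C, E2F1 and RB1, and its members are the probe sets whose platform annotation gives one of these symbols and no other. Of the 10 genes, 9 had such a probe set, with 16 of the 22283 probe sets of the array between them, and CDKN2C was not analysed here. Such established lines grow from B cells that Epstein-Barr virus has made immortal. Cells of each line were exposed to caesium-137 radiation at 1, 2.5, 5, 7.5 or 10 cGy and measured on 3 arrays per line and dose, which makes 10 groups and 30 arrays. The labels give the doses in cGy, and the design text gives the same numbers in Gy. Doses are written here in cGy. All groups were irradiated, so 1 cGy served as the comparison within a line, and what all 5 doses shared could not be measured. The interval between exposure and RNA isolation is not stated in the sources used here. No label says that replicate arrays are separate cultures, and the p-values thus reflect array-to-array spread, which may be technical. In bulk RNA of this kind, fewer cells of a type and less RNA per cell cannot be told apart.

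Entry into S phase is a relay. D-type cyclins (CCND2 and CCND3) activate CDK4 and its relatives, which start to phosphorylate RB1, the pocket protein that holds E2F factors in check. Freed E2F1 turns on the E-type cyclins (CCNE1 and CCNE2) and the genes of DNA replication, and cyclin E with CDK2 completes the inactivation of RB1. CDKN1B, the inhibitor p27, binds cyclin-CDK2 complexes, and CDKN2C, the inhibitor p18, binds CDK4 and its close relative. In B cells infected with Epstein-Barr virus, viral nuclear proteins switch on CCND2, and lymphoblastoid lines are known to carry its mRNA.

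E2F1 and MYC-family proteins bind short DNA words near the start of many of these genes, so the bases upstream of 3 members are shown to give the sequence context of the E2F-regulated genes and of CDK4. They come from RefSeq (build GRCh38.p14), cover the 250 bases before the annotated start, and read 5′ to 3′ on the strand of the gene. Capitals mark any match, on either strand, to the E2F words TTTCCCGC, TTTCGCGC, TTTGCCGC or TTTGGCGC, or to the E-box CACGTG that MYC-family proteins bind.
E2F1 (chr20:33686386-33686635, minus strand): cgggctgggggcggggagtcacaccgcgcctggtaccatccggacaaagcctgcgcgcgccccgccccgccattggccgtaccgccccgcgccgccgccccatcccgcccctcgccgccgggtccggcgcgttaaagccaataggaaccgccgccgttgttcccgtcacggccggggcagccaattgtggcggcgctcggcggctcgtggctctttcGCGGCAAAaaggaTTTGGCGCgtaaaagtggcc
CCNE1 (chr19:29811741-29811990, plus strand): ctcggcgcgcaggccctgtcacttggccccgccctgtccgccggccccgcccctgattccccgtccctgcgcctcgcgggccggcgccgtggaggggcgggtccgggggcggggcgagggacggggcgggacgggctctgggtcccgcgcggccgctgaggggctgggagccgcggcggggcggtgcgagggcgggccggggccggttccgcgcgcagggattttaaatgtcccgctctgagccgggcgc
CDK4 (chr12:57752311-57752560, minus strand): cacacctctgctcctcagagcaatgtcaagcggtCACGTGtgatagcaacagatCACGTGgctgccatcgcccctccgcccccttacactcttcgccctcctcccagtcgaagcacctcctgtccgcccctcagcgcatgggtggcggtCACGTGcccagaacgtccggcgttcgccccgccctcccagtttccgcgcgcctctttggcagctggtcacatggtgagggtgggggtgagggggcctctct
The E2F1 window held 2 E2F words, with their first bases 33 and 20 bases before the start, and the CDK4 window held 3 E-boxes. Neither motif occurred in the CCNE1 window. The table had 11 windows for 7 of the 10 genes, namely CCND3, CCNE1, CDK4, CDKN1B, CDKN2C, E2F1 and RB1, and CCND2, CCNE2 and CDK2 are only named. Among these 11 windows the E2F words occurred in that of E2F1 alone, and an E-box occurred in that of CDK4 and, once each, in 2 of the 3 windows of CDKN2C. Of all 35116 windows of this length 2.79% held one of the E2F words and 6.34% held an E-box. A match describes the letters of the window and not a bound site. The RB1 window was chr13:48476200-48476449 (plus strand). Other starts of RB1 were not searched, so the absence of both motifs holds for that window only.

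The values are array signals after each array was scaled to a common trimmed mean, on a linear scale, and changes are differences of log2(signal + 4), which understate the change of dim probe sets. A change was called at an adjusted p under 0.05. Of the 16 member probe sets, 12 lay above the filter on dim signals and were tested, at least 1 for each of the 9 genes. The other 4 (CCNE2 211814_s_at, CDK2 211803_at and 211804_s_at, RB1 211540_s_at) had median signals of 8.34, 1.30, 6.11 and 1.91 over the 30 arrays and were not tested. The 8 B cell markers with a probe set, of 9 listed, passed the same filter, with a summed signal of 1522 to 2242 per array. Of 8 T and NK cell markers 1 passed, of 6 monocyte markers 1, of 3 erythroid markers 1 and of 5 fibroblast markers 2, with summed signals of at most 93.6. Brightness before scaling, the trimmed mean of an array, had group means of 18.7 (GM15510 at 2.5 cGy) to 89.1 (GM15510 at 10 cGy). For ACTB, the log2 ratio of 3-prime over 5-prime signal, a measure of RNA integrity, had group means of 3.75 to 5.51. For GAPDH the group means were 2.27 to 2.84. The signal was thus much stronger at the 3-prime end in every group. The part of this in differences between probe sets of 1 gene was not tested.

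Among the called changes of members against 1 cGy, those with the smallest adjusted p were in the cyclins of GM15510 at 10 cGy. The counts of called members are given below beside the shares of all tested probe sets. Cyclin D2 mRNA was higher on 1 of its 3 probe sets and cyclin E1 mRNA was lower, and GM15036 showed no called change of either gene at that dose. At 10 cGy against 1 cGy, 2 of 12 member probe sets were called in GM15510, where 5.91% of all 13331 tested probe sets were called. Of them 1 was higher (background 3.09%) and 1 lower (background 2.82%). In GM15036 1 of 12 was called at 10 cGy, lower, against 11.7% of all and 7.35% as lower. In GM15510 there was 1 call at 2.5 cGy (background 9.49%), 1 at 5 cGy (background 4.19%) and 0 at 7.5 cGy (background 1.79%), the first 2 lower, with backgrounds of 5.57% and 2.12% for lower calls. In GM15036 limma called 0 at 2.5, 5 and 7.5 cGy, where the backgrounds were 0.548%, 0.143% and 3.22% and 1, 0 and 1 members had an unadjusted p under 0.05. Median changes of the 12 probe sets lay between -0.22 (GM15510 at 7.5 cGy) and 0.073 (GM15510 at 10 cGy), and those of all tested probe sets between -0.011 and 0.03. A test of whether the 5 doses differ at all (limma's F test) called 3 of 12 in GM15510 (background 21%) and 0 of 12 in GM15036 (background 16.2%, with 2 members at an unadjusted p under 0.05). Without regard to the test, the 3 arrays of a dose lay wholly above or below those of 1 cGy for 2, 2, 2 and 3 member probe sets at 2.5, 5, 7.5 and 10 cGy in GM15036 (backgrounds 19.8%, 16.4%, 19.8% and 26.9%). The counts were 5, 2, 4 and 5 in GM15510 (backgrounds 26.2%, 23.5%, 21% and 27.1%). No excess of members over these backgrounds was tested, and the results below are those of single genes.

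**Figure D1:**
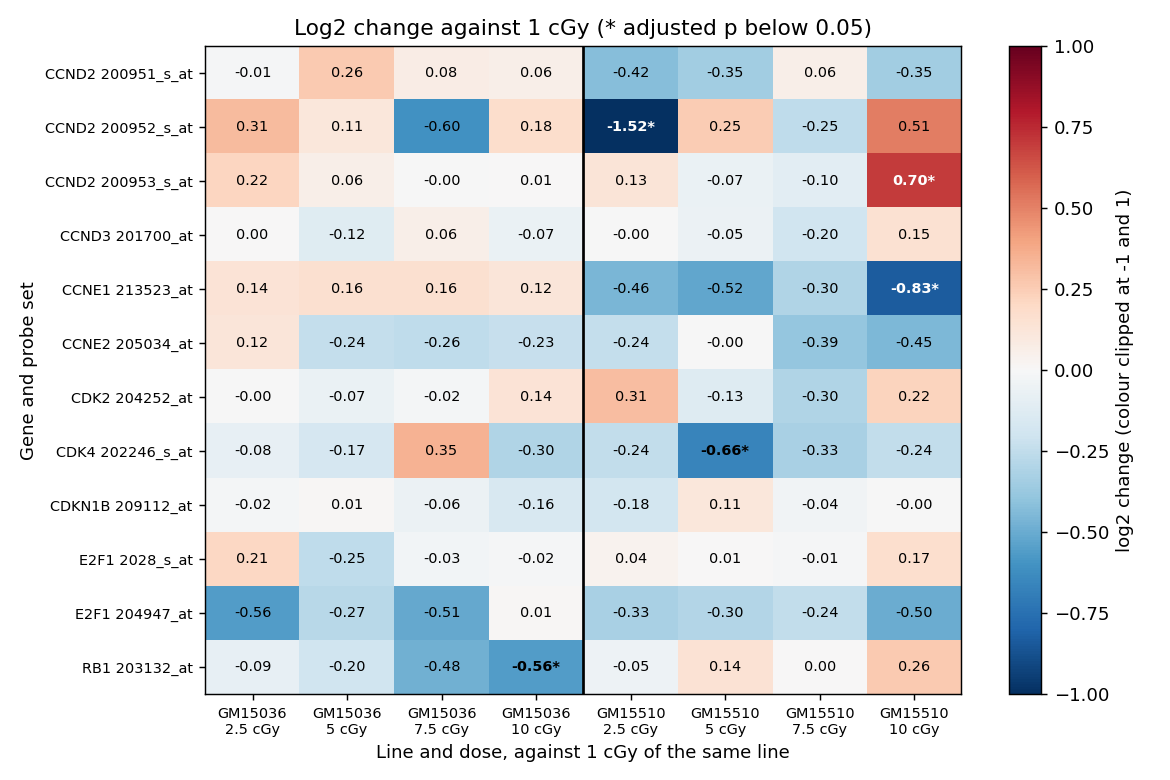
Log2 change of each of the 12 tested member probe sets (rows) at 2.5, 5, 7.5 and 10 cGy against 1 cGy of the same line (columns, GM15036 left and GM15510 right), with colour for the size and an asterisk for an adjusted p under 0.05. The 5 called values are RB1 in GM15036 at 10 cGy, and in GM15510 CCND2 200952_s_at at 2.5 cGy, CDK4 at 5 cGy, and CCND2 200953_s_at and CCNE1 at 10 cGy.

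CCND2 encodes cyclin D2, and its brightest probe set, 200953_s_at, gave the dose response with the smallest adjusted p of the set. In GM15510 its signals were 347, 355 and 358 at 1 cGy, 335, 372 and 466 at 2.5 cGy, 393, 339.9 and 287 at 5 cGy, 343, 306 and 338 at 7.5 cGy and 550.5, 558 and 626 at 10 cGy. The 3 arrays at 10 cGy lay above all 12 arrays of the lower doses. Cyclin D2 mRNA on this probe set averaged 578 ± 41.4 at 10 cGy, against 353 ± 5.84 at 1 cGy (SD, n = 3 each), a rise of 0.70 on the log2 scale (SE 0.106, adjusted p = 3.84e-05 by limma). The F test over the 5 doses gave adjusted p = 3.97e-06. At 2.5, 5 and 7.5 cGy the log2 changes were 0.13, -0.067 and -0.10 and were not called.

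In GM15036 the same CCND2 probe set was high at every dose. Its signals were 598, 619 and 577 at 1 cGy, 649, 749.5 and 689 at 2.5 cGy, 599.6, 604 and 664 at 5 cGy, 580.1, 632 and 579 at 7.5 cGy and 541, 626 and 639 at 10 cGy. The change at 10 cGy was 0.0063 and was not called, and the one at 2.5 cGy, where all 3 arrays lay above those of 1 cGy, was 0.22 with adjusted p = 0.528. The dose patterns of the lines differed by the test of the line by dose interaction (adjusted p = 0.000261, background 20.5% of probe sets called, 2 of 12 members). At 1 cGy the means were 598 ± 20.7 in GM15036 and 353 ± 5.84 in GM15510, and at 10 cGy 602 ± 53.0 and 578 ± 41.4 in the same order. The lines thus overlapped at 10 cGy and were apart at the 4 lower doses. The sign of the GM15036 change at 10 cGy depended on the scaling, with -0.64 (adjusted p = 0.000933) when unscaled arrays were centred on their medians, and the rise in GM15510 was called under each of the 9 alternative settings and without each of the 30 arrays.

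The 2 other CCND2 probe sets did not follow 200953_s_at. On 200951_s_at the GM15510 signals were 115, 109 and 107 at 10 cGy, against 123, 141 and 161 at 1 cGy, all 3 lower, and the log2 change was -0.35 with adjusted p = 0.354. On the dim 200952_s_at they were 26.0, 21.6 and 17.4 at 10 cGy, against 16.9, 8.03 and 18.4 at 1 cGy, with overlap of the groups (log2 change 0.51, adjusted p = 0.711). Over the 15 arrays of GM15510, 200953_s_at and 200951_s_at had a Pearson correlation of -0.41, and 200953_s_at and 200952_s_at one of 0.25, as a description of arrays that share their scaling. The rise of CCND2 at 10 cGy therefore rests on 1 probe set. Beside it, brightness was 89.1 ± 23.6 at 10 cGy and 69.4 ± 10.5 at 1 cGy in GM15510, the 3-prime over 5-prime log2 ratio of GAPDH was 2.45 ± 0.184 and 2.47 ± 0.108, and the ACTB ratio 5.16 ± 0.0964 and 3.75 ± 0.490 (SD, n = 3). With brightness as a covariate the rise was 0.76, and the part of the ACTB ratio was not tested. The summed signal of the 8 B cell markers was 1599 to 1688 at 10 cGy and 1522 to 1639 at 1 cGy, that of the 8 T and NK cell markers 48.1 to 55.0 and 41.3 to 50.4, and the B cell markers PAX5 and CD74 changed by 0.61 (adjusted p = 0.00022) and -0.41 (adjusted p = 0.0033), whose part was not tested.

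A fall of CCND2 at 2.5 cGy in GM15510 was called on 200952_s_at, near the lower end of the signal range. The 3 signals were 2.71, 1.36 and 2.66 at 2.5 cGy, against 16.9, 8.03 and 18.4 at 1 cGy, a log2 change of -1.52 (SE 0.469, adjusted p = 0.0353). All 3 arrays at 2.5 cGy were below those of 1 cGy, and their group had the lowest mean brightness of the 10, 18.7 ± 4.48. The call was lost with brightness as a covariate (adjusted p = 0.289), with a pseudocount of 16 (log2 change -0.72, 0.078) and without filter (0.0597). It was also lost without GM15510 1 cGy replicate 1 (0.126) or 3 (0.139) and without 2.5 cGy replicate 1 (0.0531), 2 (0.0932) or 3 (0.0614). The F test called this probe set in GM15510 as well (adjusted p = 0.0116), except with brightness as a covariate (0.0911) and without 2.5 cGy replicate 2 (0.0565). The B cell markers MS4A1, PAX5 and CD74 changed by 0.50 (adjusted p = 0.000943), 0.33 (adjusted p = 0.0403) and -0.45 (adjusted p = 0.00113) at this dose, whose part was not tested. On 200953_s_at the change at 2.5 cGy was 0.13. Under median centring of unscaled arrays it became -0.62 (adjusted p = 0.000908), where the median of all tested probe sets was -0.50.

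CCND3, the other D-type cyclin of B cells, had signals of 41.8 to 77.7 over the 30 arrays and log2 changes of -0.20 to 0.15, none called. The highest and the lowest change were both in GM15510. At 10 cGy in that line its signals were 77.7, 67.6 and 51.5, against 56.8, 62.7 and 54.8 at 1 cGy, and the groups overlapped.

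**Figure D2:**
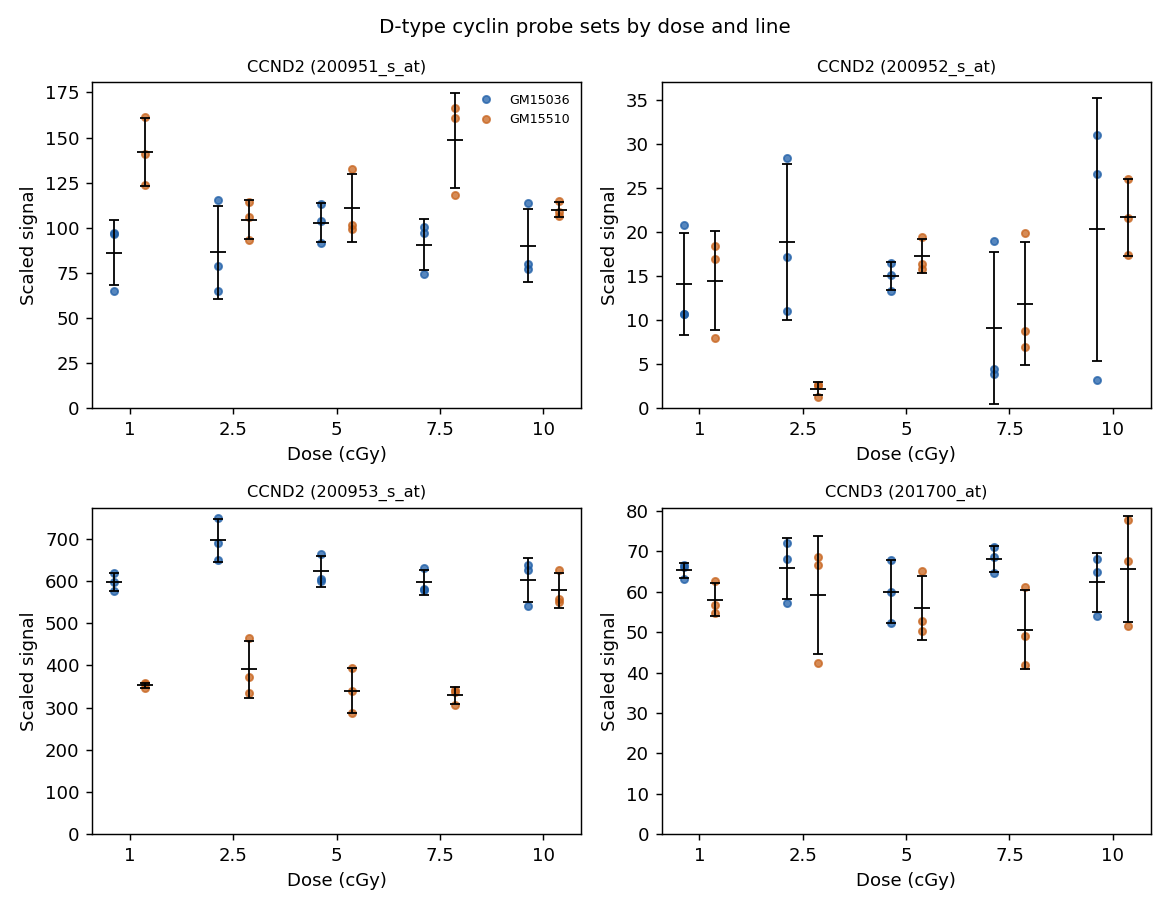
Scaled signal (vertical axis, linear) of the 3 CCND2 probe sets and of CCND3 at each dose in cGy (horizontal axis), with 1 point per array, GM15036 in blue left of GM15510 in orange, and black bars for mean and SD (n = 3). On CCND2 200953_s_at the GM15510 arrays at 10 cGy, at 550.5, 558 and 626, sit at the level of GM15036, and the other panels show no such step.

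CCNE1, cyclin E1, which activates CDK2 at the start of S phase, fell in GM15510. Its signals were 137, 166 and 149 at 1 cGy, 104, 120.0 and 100.5 at 2.5 cGy, 103, 88.3 and 121 at 5 cGy, 134, 114 and 116 at 7.5 cGy and 76.9, 77.0 and 95.0 at 10 cGy. All 12 arrays of the higher doses lay below the 3 arrays of 1 cGy. Arrays that do not overlap with 1 cGy were found for 26.2%, 23.5%, 21% and 27.1% of all tested probe sets at 2.5, 5, 7.5 and 10 cGy. These comparisons share the same 3 arrays of 1 cGy, and the share for all doses together was not computed. Cyclin E1 mRNA averaged 83.0 ± 10.4 at 10 cGy, against 151 ± 14.6 at 1 cGy (SD, n = 3 each), and fell by 0.83 on the log2 scale (SE 0.167, adjusted p = 0.00139). At 2.5, 5 and 7.5 cGy the changes were -0.46, -0.52 and -0.30, with adjusted p = 0.0776, 0.0736 and 0.5, and were not called. The F test over the doses gave adjusted p = 0.00526. The fall at 10 cGy and the F test were called under each of the 9 alternative settings and without each array. For the fall the largest adjusted p was 0.0498, just under the threshold, with median centring of unscaled arrays. Brightness, RNA ratios and marker sums at 10 and 1 cGy are those given beside CCND2. With brightness as a covariate the change at 10 cGy was -0.83.

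CCNE1 had no called change in GM15036. Its signals were 157, 107 and 93.0 at 1 cGy, 152, 111 and 125 at 2.5 cGy, 133, 129 and 129 at 5 cGy, 105, 129.8 and 162 at 7.5 cGy and 125, 106 and 156 at 10 cGy, and the groups overlapped at every dose. The 4 changes against 1 cGy lay between 0.12 and 0.16, none called. The interaction test called CCNE1 (adjusted p = 0.0324), but had 0.0702 with arrays centred after scaling and 0.0692 with brightness as a covariate. It was also lost without GM15036 1 cGy replicate b (0.086) or c (0.115), 10 cGy replicate c (0.0728), GM15510 1 cGy replicate 2 (0.0933) or 3 (0.0603), and GM15510 10 cGy replicate 1 (0.068) or 2 (0.0661).

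CCNE2, cyclin E2, pairs with CDK2 as cyclin E1 does. Its signals in GM15510 were 48.9, 37.1 and 49.4 at 10 cGy, against 73.3, 56.6 and 58.6 at 1 cGy, with all 3 lower at 10 cGy and a log2 change of -0.45 (SE 0.183) that was not called (adjusted p = 0.177). In GM15036 they were 39.5, 38.2 and 35.0 at 10 cGy, against 42.2, 41.2 and 51.1 at 1 cGy, again all 3 lower, with -0.23 and adjusted p = 0.486. Arrays that do not overlap were found for 27.1% of all tested probe sets in GM15510 and 26.9% in GM15036 at this dose. The dim second probe set of CCNE2 had 0.739 to 21.4 over the 30 arrays.

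CDK2, the kinase that cyclin E activates, had no called change. In GM15510 its probe set 204252_at had 59.0, 58.4 and 66.0 at 10 cGy, against 53.2, 49.8 and 52.3 at 1 cGy, all 3 higher, and a log2 change of 0.22 with adjusted p = 0.713. Its changes over both lines lay between -0.30 and 0.31, both ends in GM15510. The F test in that line had adjusted p = 0.114.

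CDK4, the kinase partner of the D-type cyclins, was lower in GM15510 at 5 cGy. Its signals in that line were 61.5, 64.2 and 83.7 at 1 cGy, 70.9, 48.8 and 55.8 at 2.5 cGy, 45.0, 46.2 and 36.5 at 5 cGy, 49.8, 57.1 and 56.3 at 7.5 cGy and 62.4, 49.7 and 62.2 at 10 cGy. The lowest values stood at 5 cGy, and the means of the 2 higher doses lay between those of 5 and 1 cGy. CDK4 mRNA averaged 42.6 ± 5.26 at 5 cGy, against 69.8 ± 12.1 at 1 cGy (SD, n = 3 each), and fell by 0.66 (SE 0.183, adjusted p = 0.033). The call did not survive quantile normalization (0.0839), the absence of a filter (0.0501) or brightness as a covariate (0.159). It was lost without each of the 6 arrays compared, with adjusted p = 0.0513, 0.0595 and 0.214 without 1 cGy replicates 1, 2 and 3, and 0.0684, 0.0544 and 0.12 without 5 cGy replicates 1, 2b and 3. In GM15510 brightness was 19.5, 28.1 and 69.3 for 5 cGy replicates 1, 2b and 3 and 74.2, 57.3 and 76.6 for the arrays of 1 cGy, and the ACTB ratios were 5.52, 5.48 and 3.43 at 5 cGy, against 4.01, 4.04 and 3.18 at 1 cGy. Replicate 3 at 5 cGy stood apart from the 2 others on both measures and had the lowest CDK4 signal. The B cell markers MS4A1, PAX5 and CD74 changed by 0.43 (adjusted p = 0.00777), 0.45 (adjusted p = 0.00904) and -0.40 (adjusted p = 0.00612) at this dose, with a summed signal of the 8 of 1628 to 1699 at 5 cGy and 1522 to 1639 at 1 cGy. The part of these values in the CDK4 result was not tested.

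In GM15036 CDK4 had its highest signals at 7.5 cGy, 59.7, 88.4 and 66.6, against 53.2, 55.0 and 55.6 at 1 cGy, and its lowest mean at 10 cGy with 33.7, 45.9 and 53.2. These arrays did not overlap with those of 1 cGy at either dose, upwards at 7.5 cGy (0.35) and downwards at 10 cGy (-0.30). Neither change was called (adjusted p = 0.381 and 0.335), nor was the F test over the doses (0.0854). Arrays that do not overlap were found for 19.8% and 26.9% of all tested probe sets in GM15036 at 7.5 and 10 cGy.

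**Figure D3:**
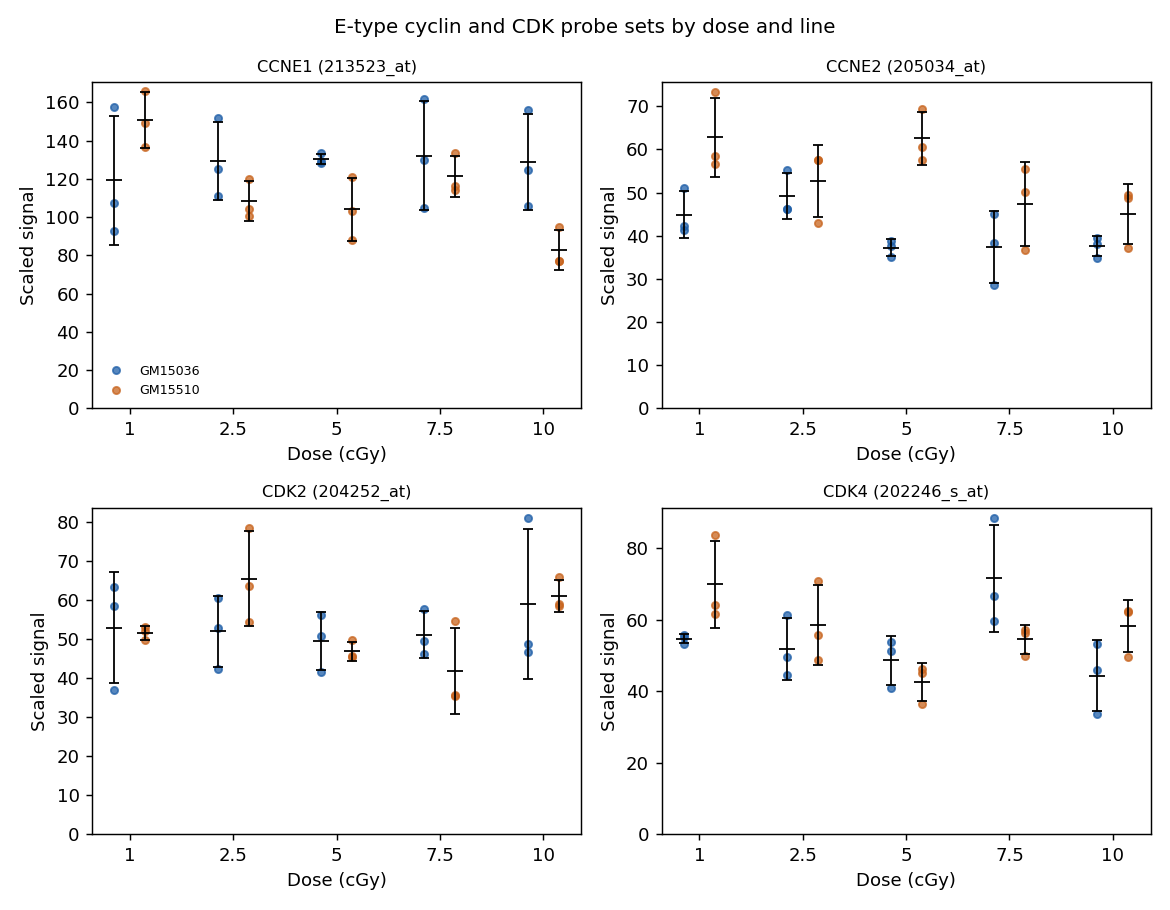
Scaled signal (vertical axis, linear) of CCNE1, CCNE2, CDK2 and CDK4 at each dose in cGy (horizontal axis), with 1 point per array, GM15036 in blue left of GM15510 in orange, and black bars for mean and SD (n = 3). For CCNE1 in GM15510 the arrays of every higher dose lie below 137, 166 and 149 at 1 cGy, and those of 10 cGy, at 76.9, 77.0 and 95.0, have the lowest mean.

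RB1, the retinoblastoma protein that restrains E2F factors, was lower in GM15036 at 10 cGy. Its signals were 81.6, 131 and 107 at 1 cGy, 74.0, 118 and 109 at 2.5 cGy, 113, 99.3 and 66.1 at 5 cGy, 66.6, 78.9 and 77.5 at 7.5 cGy and 77.0, 64.1 and 68.6 at 10 cGy. The arrays of 7.5 and of 10 cGy lay below all 3 of 1 cGy. Arrays that do not overlap were found for 19.8% and 26.9% of all tested probe sets in GM15036 at these doses. RB1 mRNA averaged 69.9 ± 6.54 at 10 cGy, against 107 ± 24.9 at 1 cGy (SD, n = 3 each), and fell by 0.56 (SE 0.178, adjusted p = 0.0347). At 7.5 cGy the change was -0.48 with adjusted p = 0.156, and the F test over the doses had 0.0691. Brightness was 22.1 ± 10.4 at 10 cGy and 69.6 ± 10.2 at 1 cGy in GM15036, and with brightness as a covariate the change was -0.34 (adjusted p = 0.608). Median centring of unscaled arrays gave -1.09 (0.000332), where the median of all tested probe sets was -0.38. The call was lost without 1 cGy replicate b (0.23) or c (0.0941) and without 10 cGy replicate b (0.121) or c (0.0781). The ACTB ratio was 5.20 ± 0.153 at 10 cGy and 4.48 ± 0.204 at 1 cGy. Of the T and NK cell markers the 1 that passed the filter, CD3E, changed by 1.36 (adjusted p = 0.0453), with a summed signal of the 8 of 74.2 to 93.6 at 10 cGy and 46.1 to 75.2 at 1 cGy, while the other 7 lay below the filter. The B cell markers PAX5 and HLA-DRA changed by 1.00 (adjusted p = 9.18e-08) and -1.16 (adjusted p = 6.38e-08), with a summed signal of 2084 to 2242 and 1695 to 1732. The part of these values in the RB1 result was not tested.

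In GM15510 RB1 had 186, 140.2 and 127 at 10 cGy, against 115, 144 and 115 at 1 cGy, and a log2 change of 0.26 that was not called (adjusted p = 0.553). The interaction test of RB1 had adjusted p = 0.066 and was not called. The dim RB1 probe set 211540_s_at, below the filter, had 0.973, 0.969 and 1.54 at 10 cGy, against 9.54, 5.11 and 7.12 at 1 cGy in GM15036. Its GM15036 means at 1, 2.5, 5, 7.5 and 10 cGy were 7.26, 1.98, 3.78, 5.63 and 1.16. On 203132_at they were 107, 100, 92.9, 74.3 and 69.9 in the same order, so the dim probe set did not follow it over the doses.

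E2F1, the transcription factor whose upstream window is printed above, had 2 tested probe sets and no called dose effect on either. On 204947_at the GM15036 signals were 48.7, 44.7 and 41.8 at 1 cGy, 32.9, 24.6 and 31.0 at 2.5 cGy, 32.1, 39.0 and 38.9 at 5 cGy, 43.5, 21.3 and 29.97 at 7.5 cGy and 62.0, 35.0 and 42.8 at 10 cGy. The arrays of 2.5 and 5 cGy lay below those of 1 cGy, with log2 changes of -0.56 and -0.27 and adjusted p = 0.631 and 0.952. Non-overlapping arrays were found for 19.8% and 16.4% of all tested probe sets at these doses. Probe set 2028_s_at had signals of 20.3 to 45.9 over the 30 arrays, and its changes at the same doses were 0.21 and -0.25. In GM15510, 204947_at had 7.04, 35.3 and 24.7 at 10 cGy, against 32.8, 27.8 and 26.0 at 1 cGy, with 1 array far below the 2 others, and the change of -0.50 was not called.

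CDKN1B, the inhibitor p27, had no called change. Its signals lay between 86.1 and 127 over all 30 arrays, and its 8 log2 changes between -0.18 (GM15510 at 2.5 cGy) and 0.11 (GM15510 at 5 cGy), none called. The mean was 97.2 ± 5.48 at 10 cGy and 109 ± 12.9 at 1 cGy in GM15036, and 111 ± 12.9 and 111 ± 5.38 in GM15510.

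**Figure D4:**
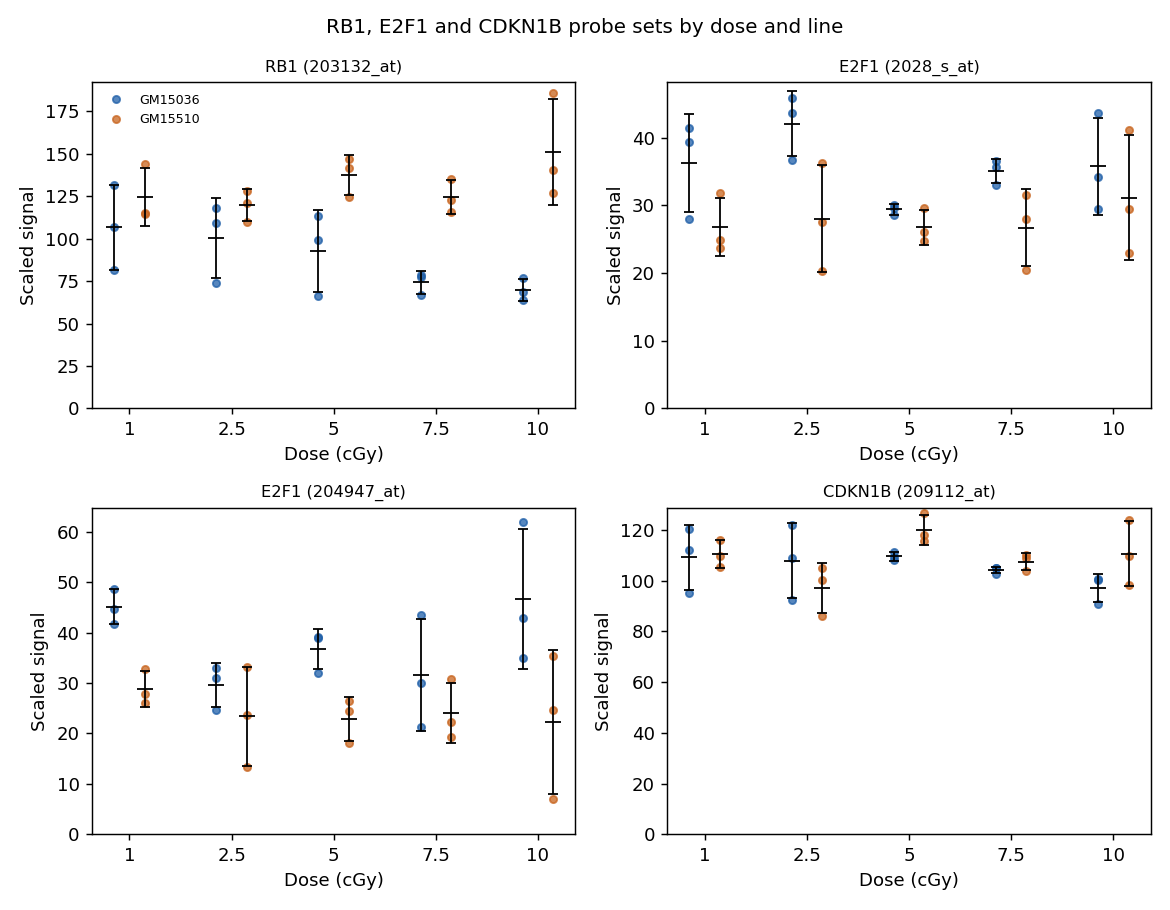
Scaled signal (vertical axis, linear) of RB1, the 2 tested E2F1 probe sets and CDKN1B at each dose in cGy (horizontal axis), with 1 point per array, GM15036 in blue left of GM15510 in orange, and black bars for mean and SD (n = 3). RB1 in GM15036 is at 77.0, 64.1 and 68.6 at 10 cGy, below its 1 cGy arrays, and CDKN1B stays between 86.1 and 127.

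The lines differed in the level of several members, averaged over the doses. Of the 12 probe sets, 7 were called between GM15036 and GM15510, 4 higher and 3 lower in GM15036, where 47.2% of all tested probe sets were called, 26.7% as higher and 20.5% as lower. The split was 2 higher and 3 lower under median centring of unscaled arrays, and 2 higher and 4 lower with centring after scaling. With 1 line on each side, the test compares these lines only. RB1 203132_at ran from 64.1 to 131 with a median of 78.9 over the 15 arrays of GM15036, against 109 to 186 with a median of 127 over the 15 arrays of GM15510. RB1 was lower in GM15036 at all 5 doses, with a log2 difference of -0.57 (SE 0.0797, adjusted p = 3.29e-07), and the ranges overlapped. CCNE2 205034_at ran from 28.5 to 55.3 with a median of 39.5 over the 15 arrays of GM15036, against 36.7 to 73.3 with a median of 56.6 over the 15 arrays of GM15510. It too was lower in GM15036 at all 5 doses, by a log2 difference of -0.35 (SE 0.0817, adjusted p = 0.000507), and the lines overlapped.

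E2F1 was higher in GM15036 on both probe sets and at all 5 doses. Within a line the probe sets did not follow each other. Their Pearson correlation over 15 arrays was -0.027 in GM15036 and -0.53 in GM15510. Probe set 204947_at ran from 21.3 to 62.0 with a median of 38.9 over the 15 arrays of GM15036, against 7.04 to 35.3 with a median of 24.7 over the 15 arrays of GM15510, a log2 difference of 0.59 (SE 0.144, adjusted p = 0.000979). Probe set 2028_s_at had 0.32 (SE 0.101, adjusted p = 0.00879), and this call was lost with quantile normalization (0.067) and with both median centrings (0.183 unscaled and 0.11 after scaling). CCNE1 had a difference of 0.18 (SE 0.0747, adjusted p = 0.0446), with means higher in GM15036 at 4 of 5 doses and lower at 1 cGy. Its call was lost under 5 of the 9 alternative settings (up to 0.779, with a difference of 0.041, under median centring) and without 20 of the 30 arrays (up to 0.103 without GM15036 1 cGy replicate a).

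The CCND2 probe sets went opposite ways between the lines. Probe set 200953_s_at ran from 541 to 749.5 with a median of 619 over the 15 arrays of GM15036, against 287 to 626 with a median of 355 over the 15 arrays of GM15510, a log2 difference of 0.68 (SE 0.0474, adjusted p = 8.83e-14). Probe set 200951_s_at ran from 65.3 to 115 with a median of 96.6 over the 15 arrays of GM15036, against 93.5 to 166 with a median of 115 over the 15 arrays of GM15510, a difference of -0.42 (SE 0.0815, adjusted p = 6.99e-05). Each kept its sign at all 5 doses and was called under each of the 9 alternative settings and without each array. The dim 200952_s_at had 0.18 (SE 0.210, adjusted p = 0.516) and was not called. Whether cyclin D2 mRNA was higher in GM15036 or in GM15510 therefore depended on the probe set. CCND3, CDK2, CDK4 and CDKN1B had differences of 0.15, -0.011, -0.066 and -0.045, none called.

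**Figure D5:**
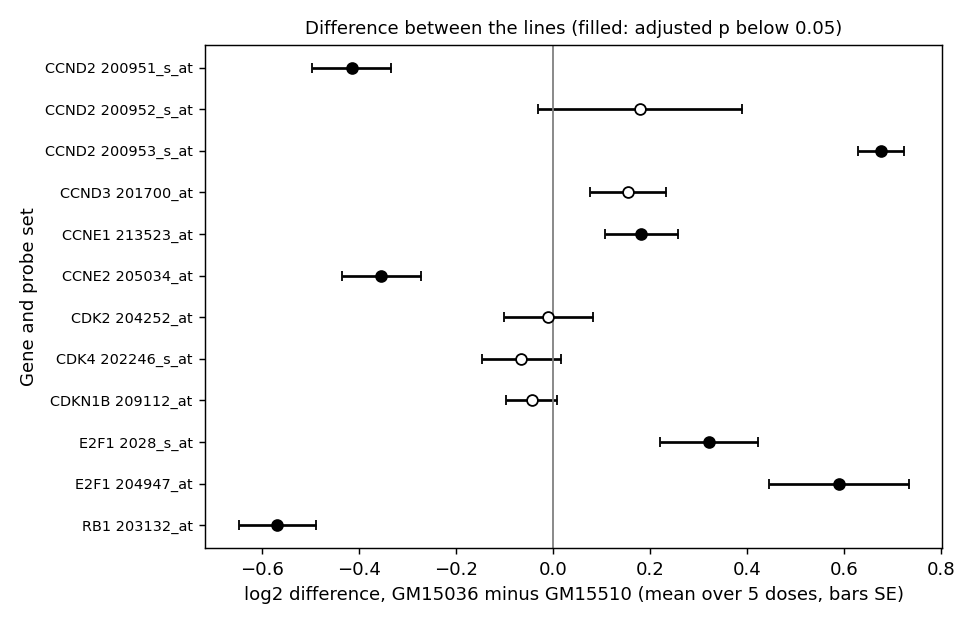
Log2 difference between GM15036 and GM15510, averaged over the 5 doses (horizontal axis, positive where GM15036 is higher), for each of the 12 tested probe sets (vertical axis), with bars for the standard error and filled points for an adjusted p under 0.05. CCND2 200953_s_at, at 0.68, and CCND2 200951_s_at, at -0.42, lie on opposite sides of 0.

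The partners of these genes were counted with 1 probe set per gene, on lists that share some genes. Of 12 other cyclins, CDKs and CDK inhibitors of G1/S, 8 were tested, and at 10 cGy 0 rose and 1 fell in GM15036 and 1 rose and 0 fell in GM15510 (median log2 change -0.18 and 0.028), where 11.7% and 5.91% of all tested probe sets were called, with 0 called at the other doses in either line. The one that fell was MNAT1, a part of the CDK-activating kinase, at -0.79 (SE 0.240, adjusted p = 0.0278), a call lost with brightness as a covariate (0.485), without GM15036 1 cGy replicate a (0.128) or c (0.0995) and without 10 cGy replicate a (0.347). The one that rose was CDC25A, the phosphatase that activates CDK2, at 0.89 (SE 0.151, adjusted p = 0.000182) in GM15510, called under each alternative and without each array. Of 15 other E2F, DP and pocket protein genes, 10 were tested, and 1 was called in any of the 8 comparisons, TFDP1, the dimer partner of E2F factors. Each of the 8 comparisons called between 0.143% and 11.7% of all tested probe sets, with 4.19% in GM15510 at 5 cGy, 2.12% as lower. TFDP1 fell in GM15510 at 5 cGy, at -0.69 (SE 0.122, adjusted p = 0.000532), and was called under each alternative and without each array. Of 7 parts of the ubiquitin ligases that act on cyclin E and p27, all tested, 1 was called in the 8 comparisons, CKS1B, a cofactor in the destruction of p27, at -0.72 (SE 0.170, adjusted p = 0.00412) in GM15036 at 10 cGy, although its adjusted p was 0.149 with brightness as a covariate. In GM15036 at 10 cGy 11.7% of all tested probe sets were called, 7.35% as lower. The 7 had a median log2 change of 0.23 at 10 cGy in GM15510 and -0.27 in GM15036, against -0.0049 and 0.03 for all tested probe sets.

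The F test over the 5 doses called 0 of 8 other cyclins, CDKs and inhibitors, 1 of 10 other E2F, DP and pocket protein genes, 3 of 7 ubiquitin ligase parts and 4 of 26 E2F targets in GM15036, against 16.2% of all tested probe sets. In GM15510 it called 3, 3, 4 and 12 of the same lists, against 21% of all. The line by dose interaction called 2, 2, 3 and 11, against 20.5%, and the difference between the lines 7, 3, 4 and 18, against 47.2%. The ubiquitin ligase parts with the smallest adjusted p by the F test were CKS2, a relative of CKS1B, in GM15036 (0.00117) and RBX1, the RING protein of these ligases, in GM15510 (0.00821). Among the E2F targets they were MCM6 in GM15036 (5.03e-06) and MSH6 in GM15510 (2.28e-06). No list was tested against the background.

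Of 28 E2F target genes, 26 were tested, CCNE1, CCNE2 and E2F1 among them. At 10 cGy 0 rose and 4 fell in GM15036 and 0 rose and 3 fell in GM15510, where 7.35% and 2.82% of all tested probe sets were called as lower. The list had median log2 changes of -0.17 and -0.000446, against 0.03 and -0.0049 for all tested probe sets. At 7.5 cGy 0 rose and 2 fell in GM15036 and 0 were called in GM15510 (backgrounds 3.22% and 1.79%). At 2.5 and 5 cGy 0 were called in GM15036, and in GM15510 2 rose and 2 fell at 2.5 cGy and 1 rose and 1 fell at 5 cGy (backgrounds 9.49% and 4.19%). In GM15036 at 10 cGy those that fell were MCM6 and MCM2, parts of the replicative helicase, RRM1, a subunit of ribonucleotide reductase, and MSH6, a mismatch repair protein. MCM6 had -0.66 (SE 0.0924, adjusted p = 9.79e-06) and was called under each alternative and without each array. MSH6 had -0.57 (SE 0.103, adjusted p = 0.000266), MCM2 -0.42 (SE 0.120, adjusted p = 0.0187) and RRM1 -0.37 (SE 0.103, adjusted p = 0.014), and these 3 calls were lost with brightness as a covariate (0.123, 0.162 and 0.439). The MCM2 call was also lost without GM15036 1 cGy replicate a (0.0827) or b (0.0546) and 10 cGy replicate a (0.195) or c (0.064), and the RRM1 call without 1 cGy replicate b (0.077) or c (0.0704) and 10 cGy replicate b (0.0673). At 7.5 cGy MSH6 had -0.51 (SE 0.103, adjusted p = 0.00357) and MCM6 -0.40 (SE 0.0924, adjusted p = 0.0104), both lost with brightness as a covariate (0.0933 and 0.101), and MCM6 also without 1 cGy replicate b (0.0864) or 7.5 cGy replicate b (0.116).

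In GM15510 MSH6 was the E2F target called as lower at 3 doses. It had -0.73 (SE 0.103, adjusted p = 1.69e-05) at 2.5 cGy, -0.60 (SE 0.103, adjusted p = 0.000446) at 5 cGy and -0.57 (SE 0.103, adjusted p = 0.000403) at 10 cGy. The call at 5 cGy held under each alternative and without each array, that at 2.5 cGy was lost with brightness as a covariate (0.0721) and that at 10 cGy under median centring of unscaled arrays (0.18). GINS1, part of the replication fork complex, had -0.60 (SE 0.110, adjusted p = 0.000439) at 10 cGy, lost under the same centring (0.119), and CCNE1 was the other gene that fell. At 2.5 cGy RRM2, the other subunit of ribonucleotide reductase, had 0.59 (SE 0.104, adjusted p = 0.000302), but -0.19 under median centring of unscaled arrays and an adjusted p of 0.466 with brightness as a covariate. GINS2 had 0.36 (SE 0.112, adjusted p = 0.039) at 2.5 cGy and 0.39 (SE 0.112, adjusted p = 0.0379) at 5 cGy. Under median centring of unscaled arrays it had -0.37 at 2.5 cGy, a called change in the opposite direction, and -0.0064 at 5 cGy (0.983). Its calls were also lost with centring after scaling (0.639 at 2.5 cGy and 0.241 at 5 cGy), without filter (0.053 and 0.0559) and with brightness as a covariate (0.93 and 0.594), and each call was lost without 5 of the 30 arrays (up to 0.234 without 2.5 cGy replicate 3 and 0.214 without 1 cGy replicate 3). MCM3, another helicase part, had -0.38 (SE 0.125, adjusted p = 0.0495) at 2.5 cGy, a call lost under 4 of the 9 alternatives (up to 0.739 with brightness as a covariate) and without 23 of the 30 arrays (up to 0.23 without GM15510 1 cGy replicate 3).

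By the likeness of their 10 group means, after each line's mean was subtracted, the probe sets closest to CCND2 200953_s_at were those of MTCH1, CTNNB1 and CYB5B, with Pearson correlations of 0.96, 0.95 and 0.95. Those closest to CCNE1 were of TXNIP, IDS and JAK2, with 0.93, 0.90 and 0.90. These are descriptions over means that share their arrays.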

How the data were processed

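The authors deposited array intensity values, 1 column for each of the 30 arrays, on a linear scale; MAS5 is the tool named by the submitters' processing notes. Version, scaling target and background settings are not given there. All values are positive, and the mean of an array between the 2 and 98 percent points differed by up to 7.91 times. Arrays were brought to a common trimmed mean of 50.9, and log2(signal + 4) was tested. Probe sets with 1 symbol were named from the platform annotation, updated through the gene ID with RefSeq (GRCh38). Control probe sets and those with a mean log2 value in the lowest 40 percent were left out, and 13331 of 22283 were tested.

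Tests used limma 3.58.1 in R 4.3.3 (a linear model with 10 groups, eBayes with an intensity trend, two-sided, 20 residual and 12.3 prior degrees of freedom), with Benjamini-Hochberg adjustment over all tested probe sets. Every adjusted p in the text is limma's. All comparisons of a line share its 1 cGy arrays. The fit was first tested on simulated data, for GM15036 at 10 against 1 cGy. It called 57 of 100 changes of log2 size 1 and 90 of 100 of size 2, with 6 false calls. A change that was not called may thus have been missed. Members, lists and tests were chosen with earlier results of these data known. All member probe sets were named, and of other lists up to 4 called genes per comparison. Each listed gene had 1 probe set, the one with the highest mean (_s_at and _x_at for lack of others). Alternatives were quantile normalization, both median centrings, pseudocounts of 1 and 16, no filter, a filter at 60 percent, a replicate block, brightness as a covariate and each array left out. The number of arrays limits the precision.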

Additional observations from a re-analysis of the deposited data

Results flagged for a closer look

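The change with dose differed between the lines for 2 member probe sets by the line by dose interaction test. CCND2 200953_s_at had adjusted p = 0.000261, with a log2 change at 10 cGy of 0.0063 in GM15036 and 0.70 in GM15510, and was called under all 9 alternatives and without each array. CCNE1 213523_at had adjusted p = 0.0324, with 0.12 in GM15036 and -0.83 in GM15510, and lost that call under 2 alternatives and without 7 of the 30 arrays. Groups of 3 arrays are too small to single out 1 array.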

How the results depend on the processing

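Of the 17 called member results, 10 were called under every alternative that gave a value and without each of the 30 arrays, and the rest lost the call at least once. The 17 include several tests of the same probe set. Of the called changes against 1 cGy, only those of CCND2 200953_s_at and CCNE1 in GM15510 at 10 cGy were among the 10. Those of CCND2 200952_s_at, CDK4 and RB1 were not. The filter at 60 percent removed CCND2 200952_s_at, so it has no value there. Counts of called member probe sets, with the value of the main setting second, moved as follows. Median centring of unscaled arrays gave 6 against 1 in GM15036 at 10 cGy, 9 against 1 and 4 against 1 in GM15510 at 2.5 and 5 cGy, all lower, 5 against 0 and 10 against 3 for any dose in GM15036 and GM15510, and 9 against 2 for the interaction. It also turned CCND2 200953_s_at to -0.64 in GM15036 at 10 cGy and to -0.62 in GM15510 at 2.5 cGy. Centring after scaling gave 4 and 2 in GM15510 at 2.5 and 5 cGy, 2 and 5 for any dose and 4 for the interaction. Quantile normalization gave 0 in GM15510 at 5 cGy and 1 for any dose in GM15036. In GM15510 at 2.5 cGy a pseudocount of 16, no filter, the filter at 60 percent and brightness as a covariate each gave 0, and at 5 cGy no filter and brightness gave 0. Brightness also gave 0 in GM15036 at 10 cGy and 1 for the interaction. The cause of these shifts was not tested. With 1 array left out the counts ran from 0 to 1 in GM15036 at 10 cGy and for any dose in GM15036, 0 to 1 and 0 to 2 in GM15510 at 2.5 and 5 cGy, 2 to 4 for any dose in GM15510 and 1 to 3 for the interaction. Deviations of same-label arrays correlated at -0.062 to 0.097 and those of other-label arrays at -0.082 to 0.069. No shared deviation by label was thus seen, which cannot settle whether a label marks a shared culture or day. The replicate block gave 6 called members between the lines against 7, with CCNE1 at adjusted p = 0.0502, and ended no other call. Over all probe sets, the counts of calls against 1 cGy ran over the alternatives from 30 to 98, 2 to 35, 134 to 573 and 362 to 4325 at 2.5, 5, 7.5 and 10 cGy in GM15036, where the main setting had 73, 19, 429 and 1565, and from 115 to 5692, 222 to 1965, 7 to 298 and 191 to 957 in GM15510, where it had 1265, 559, 238 and 788. For any dose they ran from 1207 to 3630 (2153) in GM15036 and 1756 to 6287 (2797) in GM15510, and for the interaction from 1551 to 5879 (2738). Dim signals limit CCND2 200952_s_at and the 4 untested probe sets.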
